A study of Mus musculus with 12 samples.

Results

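Messenger RNA levels in dorsal root ganglia were compared between male mouse pups raised with limited bedding and male pups raised with control bedding, across all measured genes and the programmes of the cell types these ganglia hold. The comparison used 6 of the 12 libraries of the series, grouped by their labels: the 3 limited bedding males against the 3 control males. It was chosen with earlier results of these data known. The series asked what early life stress changes in immature sensory ganglia, and the other 6 libraries, from females, were not used here. Every pup was wild type (labelled WT) and 9 days old, and the tissue was the lumbar L3 to L5 ganglia. Dams and pups of the first group were given too little nesting material from postnatal day 2 to 9, which stresses dam and litter over that whole time, and those of the other group were kept on control bedding over the same days. Litters and any pooling of pups are not in the labels, so p-values reflect only how these samples varied, a spread that may be technical.

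Dorsal root ganglia hold the cell bodies of the neurons that carry touch, limb position, temperature, pain and itch from the body to the spinal cord. Small unmyelinated neurons that detect itch and irritants, peptide-releasing nociceptors and large myelinated mechanoreceptors and proprioceptors each use their own set of peptides, receptors and ion channels, and many of these sets are still being switched on in the first postnatal weeks. Satellite glia wrap each cell body, Schwann cells wrap the axons, and fibroblasts, vessels and resident macrophages make up the rest of the ganglion.

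The deposited values were normalized counts, and all differences below are on the scale log2(value + 1) with standard errors, given as limited bedding minus control. Depth estimated from the smallest steps between values was 19100000 to 27000000 reads per library, and 14820 of 15322 genes entered the test, 502 being too low. Markers of sensory neurons summed to 150738 to 158199 in control and 159573 to 166101 in limited bedding libraries, and the Y-linked gene Ddx3y stood at 1358, 1543 and 1472 in the control libraries and 1396, 1399 and 1379 in the limited bedding libraries, so neither the tissue nor the sex label was contradicted. Spinal cord markers were low or not listed (1 of 6 in the table, at most 38.1), and none of 3 adipocyte markers was in the table. The first principal component held 37.6% of the variance and put the controls at -25.0 to -17.8 and the limited bedding libraries at 13.5, 34.5 and 17.7. Limited bedding replicate 2 stood farthest out on it and lay opposite the other 2 limited bedding libraries on the second component, at -26.2 against 26.0 and 14.2. It had 62 genes at 0 against 30 to 39 in the other libraries, so results are given with and without it where it changes them. By another measure it did not stand apart: of 12544 genes with a mean of at least 50 and no predicted name, 20 lay more than 2-fold from both other libraries of its group, against 18 to 25 for the controls, 34 for limited bedding replicate 1 and 10 for replicate 3. The share of low values lying near a whole multiple of one read was 71.7% to 80.1% in control and 61.1% to 63.3% in limited bedding libraries; the part of this difference in the results was not tested.

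After limited bedding 931 genes were higher and 942 lower at a limma adjusted p under 0.05, which is 6.28% and 6.36% of the genes tested and 12.6% together. Most of these changes were moderate in size. The median absolute log2 difference of the called genes was 0.42, and 279 genes rose and 277 fell by more than 1.5-fold, of which 83 and 85 changed by more than 2-fold. In 929 of the 931 higher and 939 of the 942 lower genes the 3 limited bedding values did not overlap the 3 control values. The call itself favours genes whose groups do not overlap, so these counts describe the calls and are no separate support. The share without overlap over all tested genes was not counted. The median over all tested genes was 0.00. A fit with 1 prior variance for all genes, in place of one that follows the level, called 371 higher and 349 lower. Leaving out control replicate 2 gave 387 and 365 calls, control replicate 1 gave 538 and 538, control replicate 3 gave 563 and 521, and limited bedding replicate 3 gave 601 and 697.

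**Figure D1:**
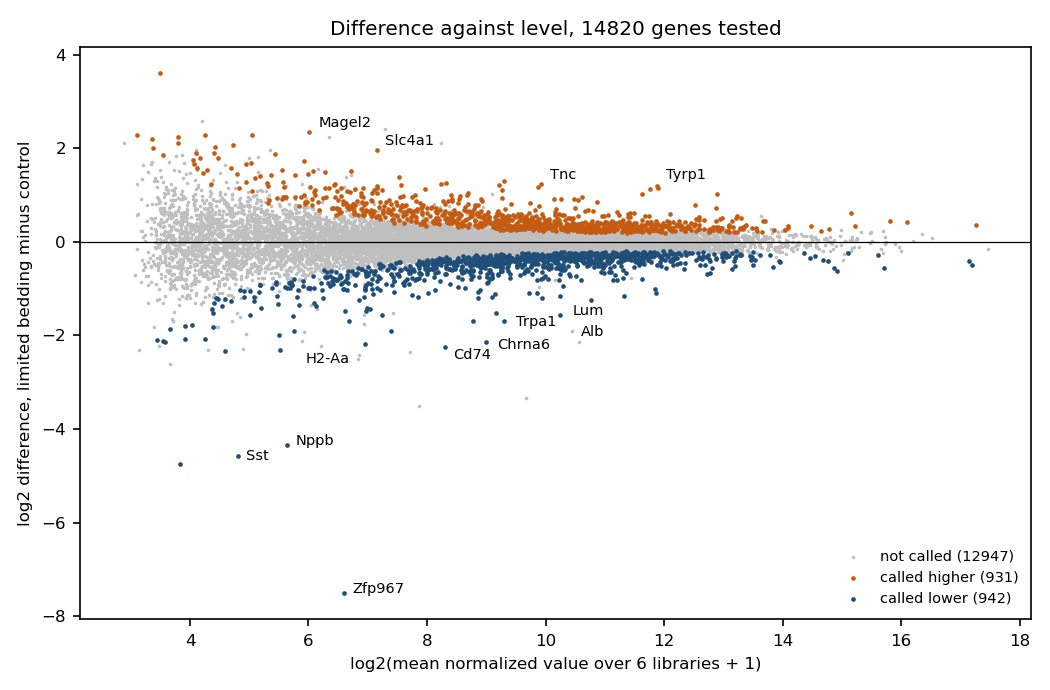
Log2 difference (limited bedding minus control) against log2 mean level for the 14820 genes tested. Each point is 1 gene, orange for the 931 called higher, blue for the 942 called lower and grey for the rest. Nppb, Sst and Zfp967 lie far below the other genes, and Alb, which is grey, is set by 1 library.

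The largest rise among well expressed genes was in Magel2, an imprinted gene whose protein directs the sorting of membrane proteins in cells. It was at 29.0, 17.4 and 15.4 in the control libraries and 86.9, 109.7 and 123 in the limited bedding libraries and rose by 2.35 ± 0.28 (adjusted p = 6.14e-04). Every limited bedding library lay far above every control. The gene lies on chromosome 7 from 62377010 to 62381640 (GRCm38). Slc8a2, which encodes a sodium-calcium exchanger of neurons, was at 375, 353 and 351 in the control libraries and 824, 993 and 858 in the limited bedding libraries and rose by 1.30 ± 0.09 (adjusted p = 2.34e-05). The 3 controls agreed closely and every limited bedding library was far above them. Tnc, which encodes the matrix glycoprotein tenascin C of growing and injured tissue, was at 623, 556 and 555 in the control libraries and 1258, 1459 and 1381 in the limited bedding libraries and rose by 1.24 ± 0.08 (adjusted p = 1.52e-05). Bnc1, a zinc finger transcription factor, rose by 1.26 ± 0.13, the calcium-activated chloride channel gene Ano2 by 1.49 ± 0.23, and Ipcef1, which encodes a partner of cytohesin exchange factors, by 1.73 ± 0.26. Hif3a, a hypoxia-inducible factor that glucocorticoids also induce, went from 33.6 ± 5.60 to 99.6 ± 24.3 (SD, n = 3). Slc4a1, the anion exchanger of red blood cells, rose by 1.97 ± 0.18 and is taken up with its cell type below. Hrk, an activator of cell death, rose by 1.52 ± 0.30, the slow muscle gene Tnni1 by 1.45 ± 0.30, the glycine receptor gene Glra2 of young neurons by 1.43 ± 0.32 and the secreted protein gene C1qtnf4 by 1.39 ± 0.26. Among these last genes, calls were lost for Hrk, Tnni1, Glra2 and C1qtnf4 with 1 prior variance (adjusted p = 0.0666, 0.0607, 0.0701 and 0.0628) and Glra2 without limited bedding replicate 3 (adjusted p = 0.0599).

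The largest falls joined neuronal receptors with genes of antigen presentation and matrix. Chrna6, a nicotinic acetylcholine receptor subunit, was at 728, 830.1 and 919.8 in the control libraries and 230.4, 145 and 193 in the limited bedding libraries. All limited bedding values lay far below all controls, and the gene fell by 2.14 ± 0.15 (adjusted p = 2.76e-05). Chrnb3, the subunit that assembles with it, was at 228, 199 and 244 in the control libraries and 72.4, 61.6 and 94.0 in the limited bedding libraries and fell by 1.56 ± 0.18. Both genes lie on chromosome 8, Chrna6 from 27403212 to 27413944 and Chrnb3 from 27368711 to 27399730 (GRCm38). Calb2, which encodes the calcium buffer calretinin of some mechanoreceptors, was at 216, 282 and 294 in the control libraries and 94.6, 55.2 and 62.7 in the limited bedding libraries and fell by 1.91 ± 0.21. Cryba2, a crystallin gene, fell by 1.91 ± 0.35, and Otoa, which encodes an anchoring protein first known from the inner ear, fell by 1.58 ± 0.23. Lum, the proteoglycan lumican of fibroblasts, was at 1672, 1959 and 1826 in the control libraries and 654, 668 and 532 in the limited bedding libraries, with no overlap and little spread in either group, and fell by 1.56 ± 0.10 (adjusted p = 9.78e-06). Neat1, the long noncoding RNA of paraspeckles, fell by 1.69 ± 0.35, with control values from 358 to 880.2, and the secreted protein gene Angptl7 fell by 1.69 ± 0.29. Of the last pair, calls were lost for Neat1 and Angptl7 with 1 prior variance (adjusted p = 0.0955 and 0.0502). Zfp967 was listed at 0 in all 3 limited bedding libraries against 288, 158 and 129.9 in control. Reads of this gene can be divided among close zinc finger copies, which leaves its value uncertain.

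**Figure D2:**
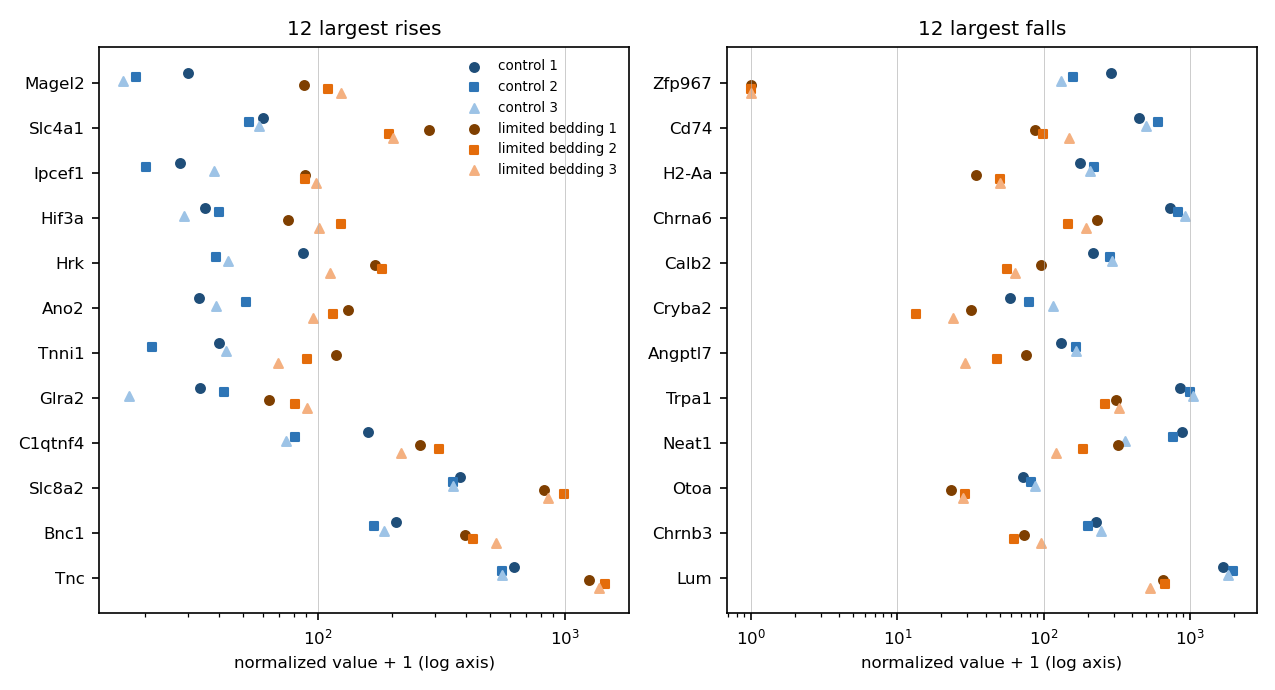
Normalized value + 1 (log axis) in each of the 6 libraries for the 12 largest rises (left) and 12 largest falls (right) among called genes with a mean of at least 50. Blue symbols are the 3 control and brown to orange symbols the 3 limited bedding libraries; the choice of these genes required that the groups not overlap.

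Itch neuron and non-peptidergic nociceptor genes had the lowest median of the neuron classes listed. Of 26 tested members 14 fell and 3 rose, with a median of -0.58 against 0.00 over all tested genes. Counts of lower members were 10 to 13 with each library left out in turn. Mean log2 levels of the list, relative to the control mean, were -0.13, 0.03 and 0.10 in the control libraries and -0.78, -0.80 and -0.69 in the limited bedding libraries, so by this measure all 3 limited bedding libraries lay well below all controls. Summed values, which weigh the highest members most, overlapped. They were 35760.5, 35610.8 and 38749.6 in the control libraries and 33567.5, 31554.4 and 36552.7 in the limited bedding libraries. The list was chosen with earlier results of these data known, so its separation is no independent support. In bulk tissue, fewer cells of a type and less RNA per cell cannot be told apart. Nppb, the peptide precursor with which itch neurons signal in the spinal cord, was at 76.2, 95.5 and 109.7 in the control libraries and 5.52, 1.97 and 4.16 in the limited bedding libraries and fell by 4.34 ± 0.38 (adjusted p = 1.44e-04). The groups lay far apart, and limited bedding replicate 2 had the lowest value. Sst, the somatostatin precursor of the same neurons, was chosen after its values were seen; it was at 29.0, 61.0 and 66.7 in the control libraries and 0.947, 3.85 and 0 in the limited bedding libraries and fell by 4.57 ± 0.63 (adjusted p = 0.00154). Its controls varied widely, and 1 limited bedding library was at 0. Trpa1, the channel for irritants, was at 845, 1003 and 1051 in the control libraries and 311, 259.8 and 324 in the limited bedding libraries and fell by 1.69 ± 0.11 (adjusted p = 1.52e-05). Prkcq, a protein kinase C of these neurons, fell by 1.15 ± 0.07, from 1673 ± 77.0 to 754 ± 35.0 (SD, n = 3). Mrgprx1, an itch receptor, went the other way, at 1532, 1201 and 1256 in the control libraries and 2296, 2284 and 2601 in the limited bedding libraries, and rose by 0.85 ± 0.09 (adjusted p = 4.22e-04). Nppb lies on chromosome 4 from 147985788 to 147987205, Sst on chromosome 16 from 23889573 to 23890958 and Trpa1 on chromosome 1 from 14872648 to 14918862 (GRCm38).

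The bases before the RefSeq start sites of Nppb and Sst, the members with the largest falls, are printed 5′ to 3′ from RefSeq (GRCm38.p6), 250 bases each, Nppb at chr4:147985650-147985899 on the + strand and Sst at chr16:23890845-23891094 on the - strand. These start sites differ from the gene bounds given above, 147985788 for Nppb and 23890958 for Sst. Part of each window therefore lies inside the gene as placed there. Capitals mark the cyclic AMP response element TGACGTCA, a palindrome, which was found in 1.55% of 32851 windows of this length.
Nppb: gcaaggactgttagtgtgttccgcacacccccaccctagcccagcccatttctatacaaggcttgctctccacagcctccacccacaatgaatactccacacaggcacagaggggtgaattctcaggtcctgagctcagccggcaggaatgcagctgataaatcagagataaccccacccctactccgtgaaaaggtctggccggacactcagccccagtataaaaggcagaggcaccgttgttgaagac
Sst: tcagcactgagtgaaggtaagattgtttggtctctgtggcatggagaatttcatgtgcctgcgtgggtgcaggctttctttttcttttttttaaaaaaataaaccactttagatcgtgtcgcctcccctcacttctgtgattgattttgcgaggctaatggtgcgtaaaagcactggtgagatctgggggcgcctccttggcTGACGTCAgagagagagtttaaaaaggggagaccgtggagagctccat
The Sst window held 1 copy, which began 48 bases before the RefSeq start site, and the Nppb window held none. The match is a description of these letters only.

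Other sensory neuron programmes had smaller median differences than the itch list, and single genes moved in both directions. Among genes of A-fibre mechanoreceptors and proprioceptors 13 of 36 tested members were lower and 1 higher (36.1% and 2.78%), with a median of -0.08. The count of lower members was 5 without control replicate 2, 8 without control replicate 3, 9 to 10 without each of the other libraries and 5 with 1 prior variance. Mean levels of this list were -0.04, -0.002 and 0.04 in the control libraries and -0.17, -0.25 and -0.09 in the limited bedding libraries. Summed values were 518824, 531445 and 543381 in control and 422020, 375542 and 431621 in limited bedding libraries, so neither measure overlapped. Spp1, which encodes osteopontin and marks proprioceptors, was at 563, 671 and 648 in the control libraries and 267, 323 and 304 in the limited bedding libraries and fell by 1.07 ± 0.11. The potassium channel gene Kcna2 of large axons fell by 0.42 ± 0.06 and the sodium channel beta subunit gene Scn4b by 0.57 ± 0.10. Of 19 tested genes of peptidergic nociceptors 3 were lower and 1 higher, 15.8% and 5.26% against 6.36% and 6.28% of all tested genes. Their summed values were 44635, 42054 and 44074 in control and 39274, 38319.5 and 38741 in limited bedding libraries, without overlap. Calcb and Calca, which encode the forms of calcitonin gene-related peptide, fell by 0.80 ± 0.07 and 0.53 ± 0.07, with Calcb at 1222, 1228 and 1229 in the control libraries and 686, 742 and 682 in the limited bedding libraries. The heat channel gene Trpv1 fell by 0.32 ± 0.08. Calls were lost for Scn4b and Trpv1 with 1 prior variance (adjusted p = 0.0680 and 0.103), Trpv1 without control replicate 1 (adjusted p = 0.0656) and Trpv1 without control replicate 3 (adjusted p = 0.0840). Of 24 tested pan-neuronal genes 2 rose and 3 fell, 8.33% and 12.5% against 6.28% and 6.36% of all tested genes. The falls were 0 without control replicate 2, 1 without control replicate 1, 2 to 3 without each of the other libraries and 1 with 1 prior variance. Summed values of this list were 506290, 502663 and 517033 in control and 477150, 453132 and 476531 in limited bedding libraries. These sums fell, whereas those of the sensory neuron markers given above rose, and mean levels of the list overlapped. Sums of the C low-threshold mechanoreceptor and cold-sensing neuron lists overlapped between the groups.

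Ion channel and receptor genes showed the same mixture. Of 69 tested potassium channel genes 15 fell and 5 rose, 21.7% and 7.25% against 6.36% and 6.28% of all tested genes. The rises were thus near the share of all tested genes. The falls were 10 to 18 with each library left out in turn and 9 with 1 prior variance. The channel partner gene Kcnip2 fell by 0.43 ± 0.06. Kcns2, a silent modifier subunit, was at 119, 98.3 and 123 in the control libraries and 283, 270.4 and 238 in the limited bedding libraries and rose by 1.21 ± 0.14, and Kcnk18, the background channel TRESK, rose by 0.61 ± 0.09. Scn3a, the sodium channel gene that dominates in embryonic neurons, was at 215, 211 and 244 in the control libraries and 460.1, 479.7 and 412 in the limited bedding libraries and rose by 1.01 ± 0.11 (adjusted p = 3.64e-04). Its groups did not overlap, and its partner subunit gene Scn3b rose by 0.43 ± 0.06. Of 30 tested sensory transduction channels 8 fell and 1 rose (26.7% and 3.33%), with the purinergic receptor gene P2rx6 at -0.79 ± 0.12. The falls were 5 without control replicate 3, 6 to 8 without each of the other libraries and 4 with 1 prior variance. Of 66 tested transmitter and peptide receptor genes 11 rose and 6 fell (16.7% and 9.09%). The rises were 8 to 11 with each library left out in turn and 5 with 1 prior variance, and the falls 3 without control replicate 2 or control replicate 3, 5 to 6 without each of the other libraries and 2 with 1 prior variance. The muscarinic receptor gene Chrm2 rose by 0.87 ± 0.12 and the somatostatin receptor gene Sstr4 by 1.22 ± 0.19, with Sstr4 at 50.2, 58.3 and 45.0 in the control libraries and 116, 134 and 111 in the limited bedding libraries. In the synaptic vesicle list 6 of 45 tested members rose and 7 fell (13.3% and 15.6%). The rises were 1 without control replicate 2, 2 without limited bedding replicate 3, 3 without control replicate 3, 4 to 7 without each of the other libraries and 1 with 1 prior variance, and the falls 3 without control replicate 2, 5 to 6 without each of the other libraries and 1 with 1 prior variance. Among the falls was Rph3a, an effector of vesicle priming, which fell by 0.68 ± 0.08.

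Many genes of immature neurons and growing axons rose. Of 30 tested members 13 rose and none fell, a share of 43.3% against 6.28% of all tested genes, and the median was 0.24. The count of higher members was 9 to 15 with each library left out in turn and 6 with 1 prior variance. Dcx, which encodes the microtubule protein doublecortin of young neurons, was at 451, 364 and 439.6 in the control libraries and 807, 725 and 887 in the limited bedding libraries and rose by 0.95 ± 0.11 (adjusted p = 5.00e-04). Marcksl1, a regulator of the actin cortex, was at 2516, 1938 and 1874 in the control libraries and 3917, 4454 and 4357 in the limited bedding libraries and rose by 1.02 ± 0.10. Neither gene's groups overlapped. The tubulin gene Tubb2b rose by 0.62 ± 0.09. Nerve injury and regeneration genes had 7 of 21 tested members higher and 1 lower (33.3% and 4.76%). Their mean level was 0.01, 0.00 and -0.01 in the control libraries and 0.44, 0.41 and 0.43 in the limited bedding libraries. The median difference was smaller, at 0.13, and 0.08 without limited bedding replicate 2. Summed values lay close together, at 27109, 25556 and 27295 in control and 28057, 27339 and 29569 in limited bedding libraries. Stmn4, a microtubule regulator of the stathmin family, rose by 0.53 ± 0.09, whereas Gadd45a, a stress-induced growth arrest gene, fell by 0.77 ± 0.15. The higher count for this list was 4 without control replicate 1, control replicate 2, limited bedding replicate 1 or limited bedding replicate 3, 5 to 7 without each of the other libraries and 3 with 1 prior variance. Of 35 tested transcription factors of sensory neurons 5 rose (14.3% against 6.28% of all tested genes) and none fell. The count was 1 without control replicate 3, 2 without control replicate 1 or control replicate 2, 3 without limited bedding replicate 1 or limited bedding replicate 3, 6 without each of the other libraries and 0 with 1 prior variance. Neurotrophic factor genes had 5 of 24 tested members higher and 1 lower, 20.8% and 4.17% against 6.28% and 6.36% of all tested genes. Among them Gfra3, the artemin receptor, rose by 0.65 ± 0.08, and Ntf3, which encodes neurotrophin 3, rose by 0.74 ± 0.12.

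Of 31 tested fetal and imprinted growth genes 10 rose and 4 fell, 32.3% and 12.9% against 6.28% and 6.36% of all tested genes. The median was 0.23. The higher count was 7 to 10 with each library left out in turn and 6 with 1 prior variance, and the lower count was 1 without control replicate 2, 2 without control replicate 1, control replicate 3, limited bedding replicate 1, limited bedding replicate 2 or limited bedding replicate 3 and 0 with 1 prior variance. Nnat, the imprinted gene of neuronatin, was at 2512, 2196 and 1844 in the control libraries and 4012, 5873 and 4522 in the limited bedding libraries and rose by 1.13 ± 0.13. H19, an imprinted noncoding RNA that is high before birth, was at 5367, 5577 and 4124 in the control libraries and 10761, 11374 and 8314 in the limited bedding libraries and rose by 1.01 ± 0.13 (adjusted p = 8.20e-04). Ndn, which encodes necdin and lies in the same imprinted region as Magel2, rose by 0.48 ± 0.07. In each of these genes the lowest limited bedding library was above the highest control. Among genes of insulin-like growth factor signalling 5 of 22 tested members rose and 1 fell (22.7% and 4.55%). The count of rises was 3 without control replicate 1, control replicate 2, control replicate 3 or limited bedding replicate 3, 4 without each of the other libraries and 1 with 1 prior variance. The protease gene Pappa2, which frees growth factor from its binding proteins, rose by 0.92 ± 0.14, and the protease gene Htra1 fell by 0.72 ± 0.07, from 1702 ± 115 to 1030.2 ± 16.2 (SD, n = 3).

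Some genes of dividing cells and of ribosomal proteins rose, and these counts varied widely with the libraries used. Of 40 tested mitosis genes 11 rose and none fell, 39 lay above 0 and the median was 0.39, where the median of all tested genes was 0.00. Counts of higher members were 3 without control replicate 1, 5 without control replicate 2 or limited bedding replicate 1, 6 without control replicate 3 or limited bedding replicate 3, 12 without each of the other libraries and 6 with 1 prior variance. Mean log2 levels were -0.02, 0.08 and -0.06 in the control libraries and 0.54, 0.25 and 0.32 in the limited bedding libraries. Racgap1, which organizes the cleavage furrow, was at 519, 535 and 554 in the control libraries and 806, 829.5 and 744 in the limited bedding libraries and rose by 0.56 ± 0.08. Aurkb, the mitotic kinase Aurora B, rose by 0.87 ± 0.16 and Bub1b, a spindle checkpoint kinase, by 0.59 ± 0.12, with Bub1b at 159, 159 and 157 in the control libraries and 248, 228 and 241 in the limited bedding libraries. DNA replication genes had 5 of 40 tested members higher, 12.5% against 6.28% of all tested genes. The count was 1 without control replicate 2, control replicate 3 or limited bedding replicate 1, 2 without limited bedding replicate 2, 3 without control replicate 1, 6 without each of the other libraries and 3 with 1 prior variance. Pole, the catalytic subunit of a replicative polymerase, rose by 0.83 ± 0.12. Of 82 tested genes of cytosolic ribosomal proteins 14 rose, with a median of 0.21 that became 0.11 without limited bedding replicate 2. The counts for this list were 1 without control replicate 3, 2 without control replicate 2, 6 without limited bedding replicate 2, 9 without control replicate 1 or limited bedding replicate 1, 26 without limited bedding replicate 3 and 0 with 1 prior variance. Its mean level was 0.10, 0.01 and -0.12 in the control libraries and 0.20, 0.37 and 0.03 in the limited bedding libraries, so limited bedding replicate 2 was the highest and replicate 3 lay below control replicate 1. With the replicate block the count was 32.

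Part of the antigen presentation genes fell. Of 18 tested members of the MHC class II and antigen presentation list 8 fell and none rose, none had a difference above 0, and the median was -0.45. The count was 4 without control replicate 2, 5 without control replicate 1 or limited bedding replicate 3, 6 to 10 without each of the other libraries and 4 with 1 prior variance. MHC class II molecules display peptides to helper T cells and are made by macrophages and dendritic cells. H2-Aa, an alpha chain, was at 177, 218 and 207 in the control libraries and 33.5, 49.5 and 48.9 in the limited bedding libraries and fell by 2.18 ± 0.20 (adjusted p = 1.44e-04). Cd74, the invariant chain that loads these molecules, was at 449, 602 and 498 in the control libraries and 85.7, 97.9 and 148 in the limited bedding libraries and fell by 2.24 ± 0.19 (adjusted p = 1.15e-04). Both groups were compact and far apart for each gene. H2-Ab1 and H2-Eb1, beta chains, fell by 1.41 ± 0.16 and 1.49 ± 0.20, with H2-Eb1 at 185, 205 and 162 in the control libraries and 62.7, 50.2 and 85.8 in the limited bedding libraries. No macrophage gene was called lower. Of 25 tested, 2 rose (8% against 6.28% of all tested genes), and none was called without limited bedding replicate 2. The 4 defining macrophage markers summed to 1197 to 1418 in control and 1192 to 1559 in limited bedding libraries, none of them called. Interferon-stimulated genes had 6 of 36 tested members lower and none higher, and the count was 1 without control replicate 1, 2 without control replicate 3, 3 without control replicate 2, limited bedding replicate 1, limited bedding replicate 2 or limited bedding replicate 3 and 3 with 1 prior variance. Ifi27, one of them, fell by 0.59 ± 0.10 but lost its call with 1 prior variance (adjusted p = 0.0501).

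The windows before the start sites of the class II genes H2-Aa and H2-Eb1, which fell together, are printed from RefSeq (GRCm38.p6), 250 bases each, 5′ to 3′, H2-Aa at chr17:34287824-34288073 on the - strand and H2-Eb1 at chr17:34305617-34305866 on the + strand. Capitals mark the Y box CTGATTGG, a known element of class II promoters that was searched on both strands and found in 3.83% of 32851 windows, and the cyclic AMP response element TGACGTCA. The searched motifs did not overlap in these windows.
H2-Aa: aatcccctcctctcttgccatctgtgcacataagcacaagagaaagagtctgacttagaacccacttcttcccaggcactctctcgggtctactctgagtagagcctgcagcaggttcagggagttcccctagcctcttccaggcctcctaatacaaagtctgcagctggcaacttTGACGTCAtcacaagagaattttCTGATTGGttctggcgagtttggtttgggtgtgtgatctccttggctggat
H2-Eb1: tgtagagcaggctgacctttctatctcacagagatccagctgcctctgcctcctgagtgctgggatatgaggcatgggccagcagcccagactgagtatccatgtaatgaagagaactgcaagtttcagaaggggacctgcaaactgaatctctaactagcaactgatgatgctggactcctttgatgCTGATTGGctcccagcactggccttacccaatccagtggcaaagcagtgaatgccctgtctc
Each window held 1 Y box, beginning 51 bases before the start site in H2-Aa and 62 in H2-Eb1, and the H2-Aa window also held 1 cyclic AMP response element, beginning 74 bases before it. The matches describe the letters and show no binding.

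Most red blood cell genes rose, with large differences between the limited bedding libraries. Mean levels of the list were 0.26, -0.14 and -0.12 in the control libraries and 1.30, 1.27 and 0.21 in the limited bedding libraries. Limited bedding replicate 3 thus lay below control replicate 1, and the groups overlapped. Of 16 tested members 10 were higher and 1 lower, the median was 1.14, and without limited bedding replicate 2 there were 5 higher and none lower, with a median of 0.81. Counts of higher members were 4 without limited bedding replicate 1, 5 without control replicate 2, control replicate 3 or limited bedding replicate 2, 6 without control replicate 1, 7 without each of the other libraries and 4 with 1 prior variance. Slc4a1 was at 59.4, 51.8 and 56.7 in the control libraries and 282, 194 and 201 in the limited bedding libraries (adjusted p = 1.47e-04), with limited bedding replicate 1 highest. The 4 defining markers, which include globin genes that share reads with near-identical copies, summed to 2049 to 2736 in control and to 3139, 8838 and 5728 in limited bedding libraries. These markers moved with the treatment, and their part in the other results was not tested. Nuclear-encoded genes of the respiratory chain had 2 of 74 tested members higher and 3 lower, below the 12.6% of all tested genes.

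Glial genes did not move as one. Of 21 tested satellite glia genes 4 rose and 4 fell, 19.05% each way against 6.28% and 6.36% of all tested genes, and the rises were 2 without control replicate 1 or control replicate 2, 3 to 4 without each of the other libraries and 2 with 1 prior variance. Apoe, the lipid carrier that satellite glia make in large amounts, was at 36959, 39528 and 36568 in the control libraries and 24141, 26088 and 23430.1 in the limited bedding libraries and fell by 0.62 ± 0.07 (adjusted p = 5.57e-04). Ednrb, the endothelin receptor, fell by 0.52 ± 0.07 and the calcium-binding protein gene S100b by 0.67 ± 0.08, all 3 without overlap. Tyrp1, known from pigment synthesis, was at 2472, 2030.2 and 2339.6 in the control libraries and 4243, 5719.5 and 5879 in the limited bedding libraries and rose by 1.20 ± 0.12 (adjusted p = 2.08e-04). The 5 defining satellite glia markers summed to 47606 to 50736 in control and 32637 to 35525 in limited bedding libraries, and 2 of the 5 were called lower. Apoe made up the larger share of these sums. Mean levels of the satellite glia list were -0.001, 0.03 and -0.03 in the control libraries and -0.07, 0.06 and 0.03 in the limited bedding libraries, so the groups overlapped. The median difference of the list was -0.03. Myelinating Schwann cell genes had 5 of 23 tested members lower and none higher, and the count was 2 without control replicate 1 or control replicate 2, 3 without limited bedding replicate 3, 8 without control replicate 3 or limited bedding replicate 2, 4 without each of the other libraries and 1 with 1 prior variance. The mean level of this list was 0.22, 0.08 and -0.30 in the control libraries and -0.26, 0.02 and -0.32 in the limited bedding libraries, so the groups overlapped: control replicate 3 lay with limited bedding replicates 1 and 3, and limited bedding replicate 2 with the other controls.

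Some collagen, cartilage and fibroblast genes fell, whereas the matrix gene Tnc, given above, rose. Of 37 tested collagen genes 13 fell and 1 rose, 35.1% and 2.70% against 6.36% and 6.28% of all tested genes. The median was -0.27, and without limited bedding replicate 2 there were 15 falls, with a median of -0.36. The counts of falls were 8 without control replicate 2, 10 to 15 without each of the other libraries and 5 with 1 prior variance. Mean levels of the list were 0.03, 0.09 and -0.11 in the control libraries and -0.31, -0.05 and -0.36 in the limited bedding libraries. Col2a1, the collagen of cartilage, was at 843, 851 and 850.5 in the control libraries and 281, 311 and 297 in the limited bedding libraries and fell by 1.52 ± 0.08 (adjusted p = 9.78e-06). Its spread within each group was small beside the gap between them. Col27a1 fell by 1.10 ± 0.17, Col16a1 by 0.66 ± 0.09 and Col11a1 by 0.55 ± 0.08. Cartilage and bone genes had 8 of 22 tested members lower and 1 higher (36.4% and 4.55%). The falls were 4 without control replicate 2 and 6 to 7 without each of the other libraries. Matn4, a matrilin of the matrix, fell by 0.84 ± 0.13, whereas Cnmd, which encodes the cartilage protein chondromodulin, rose by 0.55 ± 0.10. The cartilage markers summed to 960 to 1069 in control and 411 to 434 in limited bedding libraries, of which Col2a1 made up the larger share and was the only 1 of 3 tested markers called. Mean levels of the cartilage and bone list were -0.01, 0.19 and -0.17 in the control libraries and -0.32, 0.01 and -0.10 in the limited bedding libraries, so the groups overlapped, and the part of cartilage in the other results was not tested. Fibroblast and perineurial genes had 7 of 23 tested members lower and 2 higher (30.4% and 8.70%). The falls were 2 without control replicate 2, 3 without limited bedding replicate 3, 4 without control replicate 3 or limited bedding replicate 1, 5 to 8 without each of the other libraries and 1 with 1 prior variance. Of the 4 defining fibroblast markers 3 were called lower. Together the 4 summed to 40938, 43098 and 42182 in control and 29163, 36430 and 28378 in limited bedding libraries. Summed values of the whole list were 140265, 149772 and 140358 in control and 103485, 134976 and 101297 in limited bedding libraries, whereas its mean levels overlapped. The fibroblast gene Pi16 was at 98.1, 82.5 and 94.0 in the control libraries and 168, 193 and 154 in the limited bedding libraries and rose by 0.90 ± 0.15, against the direction of Lum.

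**Figure D3:**
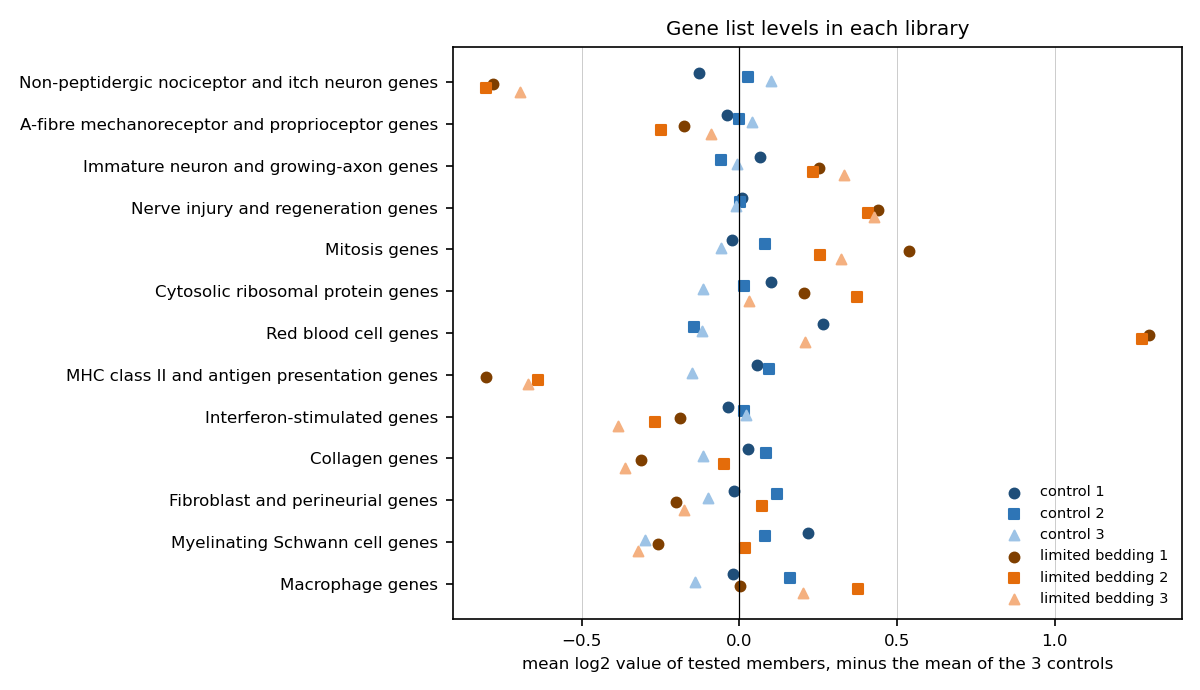
Mean log2 level of the tested members of 13 gene lists in each library, relative to the mean of the 3 controls. Blue symbols are control and brown to orange symbols limited bedding libraries. The itch, A-fibre, immature neuron, nerve injury, mitosis, antigen presentation and interferon lists separate the groups. The groups overlap in the myelin, fibroblast, collagen, red blood cell, macrophage and ribosomal lists. The ribosomal list is highest in limited bedding replicate 2.

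Genes of the glucocorticoid response did not change together. The receptor gene Nr3c1 was at 1354, 1534 and 1386 in the control libraries and 1169, 1303 and 1208 in the limited bedding libraries, a difference of -0.22 ± 0.07 that missed the threshold (adjusted p = 0.0814). The mineralocorticoid receptor gene Nr3c2 was at 285, 289 and 269 in the control libraries and 164, 139.8 and 180.4 in the limited bedding libraries and fell by 0.80 ± 0.13. Fkbp5, the co-chaperone that glucocorticoids induce, was at 782, 885 and 896 in the control libraries and 1105, 1248 and 1183 in the limited bedding libraries and rose by 0.46 ± 0.08. Of the glucocorticoid-induced list 5 of 31 tested members rose and 3 fell, 16.1% and 9.68% against 6.28% and 6.36% of all tested genes. The falls were 1 without control replicate 2, 2 to 4 without each of the other libraries and 0 with 1 prior variance. Dusp1, a phosphatase gene of that list, rose by 0.48 ± 0.10, and Sgk1, another induced gene, was at 0.19 ± 0.10 (adjusted p = 0.241). Tsc22d3 fell by 0.31 ± 0.06, a call that was lost with 1 prior variance (adjusted p = 0.0664) and without control replicate 2 (adjusted p = 0.0563). Of the signalling list 2 of 19 rose and 4 fell (10.5% and 21.1%), among the latter the chaperone gene Hsp90aa1, by 0.39 ± 0.07.

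Clock and chaperone genes moved in both directions. Of 19 tested clock genes 5 fell and 3 rose, 26.3% and 15.8% against 6.36% and 6.28% of all tested genes. The falls were 3 without control replicate 2, 4 to 6 without each of the other libraries and 3 with 1 prior variance and the rises 0 without control replicate 2, control replicate 3 or limited bedding replicate 3, 1 without control replicate 1 or limited bedding replicate 2 and 3 without each of the other libraries. Dbp, a transcription factor at the output of the clock, was at 333, 380.3 and 335 in the control libraries and 177, 219 and 225 in the limited bedding libraries and fell by 0.76 ± 0.12, and Nr1d2, a repressor within the clock, fell by 0.62 ± 0.10. The labels give no time of day for tissue collection. Of 30 tested heat shock and unfolded protein response genes 5 rose and 4 fell (16.7% and 13.3%). The rises were 0 without control replicate 2, 2 without control replicate 1, control replicate 3 or limited bedding replicate 1, 3 without limited bedding replicate 2, 4 without each of the other libraries and 0 with 1 prior variance and the falls 3 to 5 with each library left out in turn and 2 with 1 prior variance. Hspa5, the main chaperone of the endoplasmic reticulum, rose by 0.32 ± 0.06. Hsph1, a large heat shock protein gene, was at 3085, 3077 and 3399.9 in the control libraries and 2004, 1707 and 1886 in the limited bedding libraries and fell by 0.77 ± 0.07. The desaturase gene Scd1 fell by 0.58 ± 0.09, the sterol enzyme gene Sc5d by 0.43 ± 0.07 and the pericyte gene Rgs5 by 0.40 ± 0.07. Of 23 tested glycolysis genes 2 rose and 4 fell (8.70% and 17.4%). The falls were 0 without control replicate 2, 1 without control replicate 1 or limited bedding replicate 3, 2 without control replicate 3, 3 to 4 without each of the other libraries and 0 with 1 prior variance. Among them Aldoc rose by 0.29 ± 0.06 and Pfkfb3, which makes an activator of glycolysis, fell by 0.33 ± 0.08. Calls were lost for Hspa5 and Pfkfb3 with 1 prior variance (adjusted p = 0.0644 and 0.0879), Pfkfb3 without control replicate 1 (adjusted p = 0.0620) and Pfkfb3 and Hspa5 without control replicate 2 (adjusted p = 0.103 and 0.0610). Immediate early genes, which mark recent activity, had 2 of 26 tested members higher and 2 lower, near the 6.28% and 6.36% of all tested genes.

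**Figure D4:**
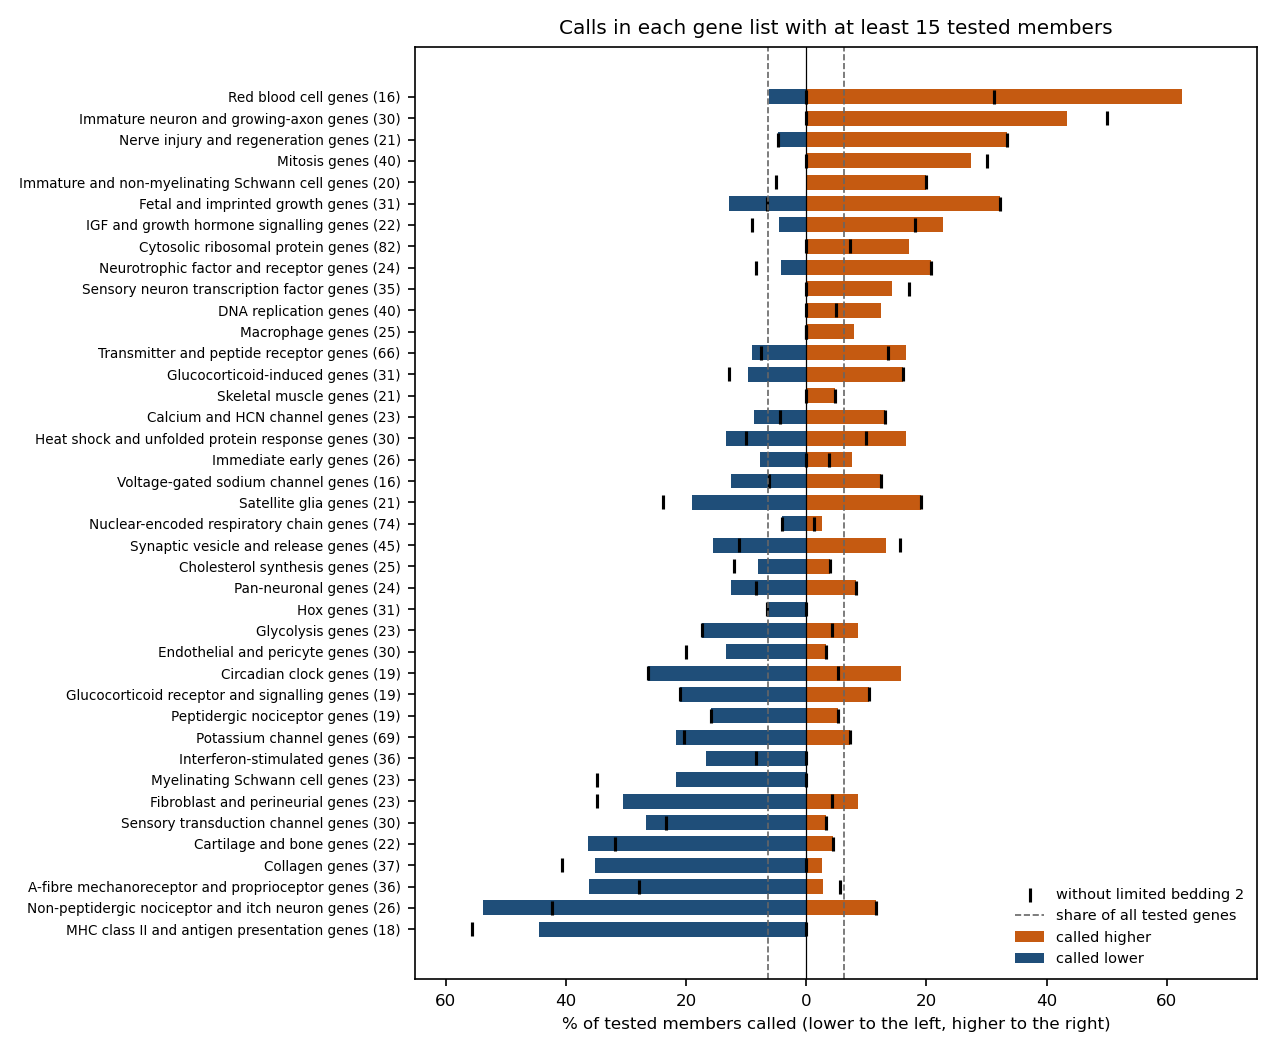
Share of the tested members of each gene list called higher (orange, right) or lower (blue, left), in %, for lists with at least 15 tested members, whose number stands in brackets. Black ticks give the share without limited bedding replicate 2 and dashed lines the share of all tested genes (6.28% higher, 6.36% lower). Itch, antigen presentation, cartilage and bone and A-fibre lists reach farthest left, and red blood cell and immature neuron lists farthest right.

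Without limited bedding replicate 2, 766 genes were higher (5.17%) and 786 lower (5.30%). Of the 1873 genes called with all libraries 1319 were also called without it, every one with the same sign, 554 were not, and 233 others were called only then. Itch genes had 11 falls in place of 14, immature neuron genes 15 rises in place of 13, mitosis genes 12 in place of 11 and antigen presentation genes 10 falls in place of 8. Among lists with at least 3 calls in a direction, the counts that dropped more than 1.5 times were those of ribosomal protein, red blood cell, DNA replication and interferon-stimulated genes, given above, with clock genes (1 rise in place of 3), heat shock and unfolded protein response genes (3 rises in place of 5) and fetal and imprinted genes (2 falls in place of 4). The falls of myelinating Schwann cell genes went from 5 to 8. Among named genes with the largest differences that lost their call were Lsr, which encodes a lipoprotein receptor of tight junctions and stood at 1.15 ± 0.29 (adjusted p = 0.0620 without it), and Sidt1, a gene for a transporter-like membrane protein, at 1.05 ± 0.30 (adjusted p = 0.107 without it). In addition, calls were lost for Lsr and Sidt1 with 1 prior variance (adjusted p = 0.101 and 0.158), Sidt1 with sample weights (adjusted p = 0.0686), Sidt1 without control replicate 1 (adjusted p = 0.0884), Lsr without control replicate 2 (adjusted p = 0.0581), Lsr and Sidt1 without control replicate 3 (adjusted p = 0.0701 and 0.137) and Lsr and Sidt1 without limited bedding replicate 3 (adjusted p = 0.0852 and 0.0630).

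Limited bedding replicate 2 differed from the other 5 libraries most clearly in transcripts of the liver. Alb, which encodes serum albumin, was at 1458, 1526 and 996 in the control libraries and 2338, 7.79 and 2035 in the limited bedding libraries. The 5 other libraries thus held between 996 and 2338, and this one held almost none. Serpina6, the corticosteroid-binding globulin of plasma, was at 133, 126 and 83.0 in the control libraries and 214, 0 and 173 in the limited bedding libraries, and Ahsg, the plasma protein fetuin A, at 71.0, 65.5 and 54.4 in the control libraries and 120.2, 0 and 108 in the limited bedding libraries. Both were at 0 in limited bedding replicate 2 alone. A list of 31 liver genes, written after these values were seen and given no test as a list, summed to 2461, 2585 and 1732 in the control libraries and to 3885, 120.4 and 3474 in the limited bedding libraries. Without Alb the sums were 1003, 1059 and 736 against 1547, 112.6 and 1439. Limited bedding replicate 2 was the lowest of the 6 libraries in 30 of the 31 genes and at exactly 0 in 18, whereas no gene was at 0 in any other library. Over the 5 remaining libraries Alb was higher after limited bedding by 0.74 ± 0.14 (adjusted p = 0.00706), Serpina6 by 0.78 ± 0.21 (adjusted p = 0.0360), Ahsg by 0.84 ± 0.22 (adjusted p = 0.0283) and Serpina1b by 0.91 ± 0.22 (adjusted p = 0.0209), and Itih4 stood at 0.88 ± 0.27, which missed the threshold (adjusted p = 0.0582). With all 6 libraries these genes stood at -1.91 ± 1.57, -1.75 ± 1.51, -1.44 ± 1.37, -1.34 ± 1.36 and -1.03 ± 1.17, none of them called. All of these genes were named because limited bedding replicate 2 lay far below the other limited bedding libraries in them. That choice favours genes high in those other libraries, so the adjusted p-values over the 5 libraries are no independent support. Where the liver transcripts came from was not tested.

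The same library was highest in genes of the meninges, the membranes around spinal cord and roots. Ptgds, the prostaglandin D synthase that meningeal cells secrete, was at 11117, 15327 and 5119.7 in the control libraries and 9913, 23299.9 and 11763 in the limited bedding libraries. Control replicate 3 had the lowest and limited bedding replicate 2 the highest value, far apart. Slc6a13, a transporter of GABA and taurine in meningeal cells, was at 369, 463 and 158 in the control libraries and 357, 760.4 and 344 in the limited bedding libraries, and Slc6a12, a betaine transporter, at 62.5, 85.7 and 19.2 in the control libraries and 90.6, 242 and 88.4 in the limited bedding libraries. A list of 22 meningeal genes, also written after the values were seen, summed without Ptgds to 6236, 7654 and 4569 in the control libraries and to 5993, 9832 and 6634 in the limited bedding libraries. Limited bedding replicate 2 was highest in 19 of the 22 genes and control replicate 3 lowest in 19, and none of the 22 was called. Skeletal muscle markers followed neither pattern. They summed to 1338, 86.2 and 285.8 in the control libraries and to 2821, 268.9 and 246.6 in the limited bedding libraries, so control replicate 1 and limited bedding replicate 1 were high. None of the 4 muscle markers was called, and 20 of 21 tested muscle genes had differences above 0 with a median of 0.71, of which only Tnni1 was called. The part of attached tissue in any result was not tested.

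**Figure D5:**
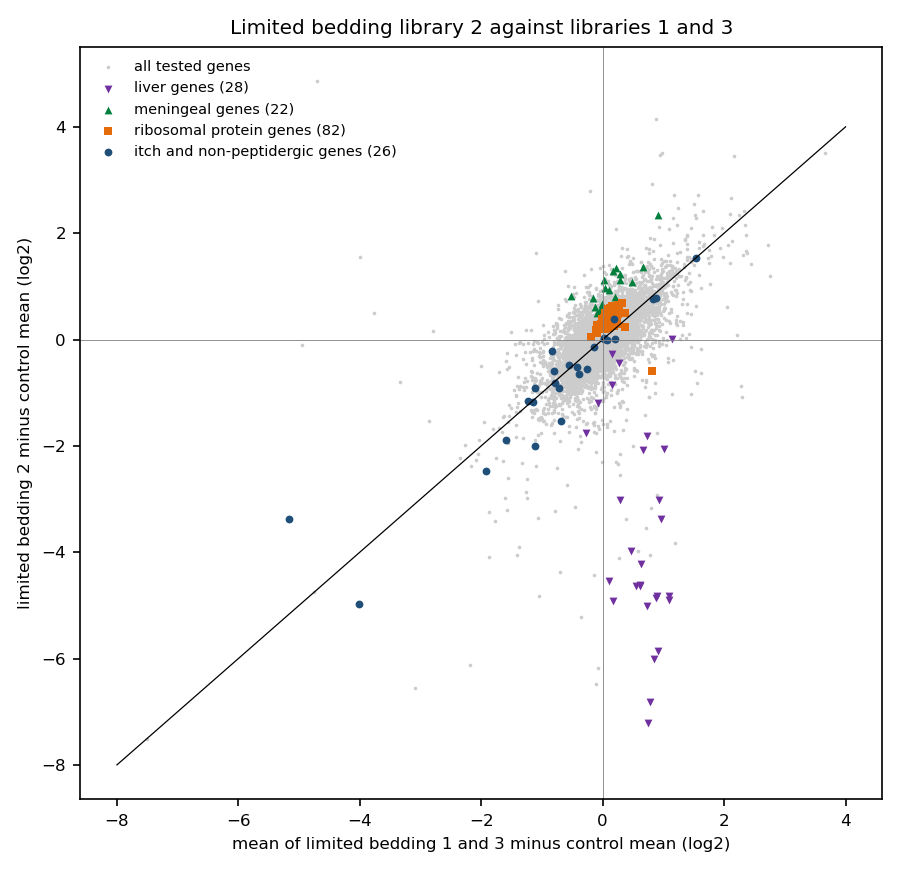
Log2 difference from the control mean in limited bedding replicate 2 (vertical) against the mean difference in replicates 1 and 3 (horizontal), 1 point per tested gene, with the line of equality. Itch genes (blue circles) follow the line, meningeal genes (green triangles) and most ribosomal protein genes (orange squares) lie above it, and liver genes (purple triangles) fall far below it.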

How the data were processed

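Total RNA of dorsal root ganglia was sequenced from libraries made with a directional kit, per the labels' protocols. The submitters' processing notes name STAR, Salmon, DESeq2 and build mm10 but not their roles. The sources used here do not give the annotation, the strand setting or any filter on low counts. Each value of the deposited table is a normalized signal of 1 gene in 1 library, in a table that also holds DESeq2 result columns, per the file headers, and the values are not whole counts. Low values (up to 12) lay within 0.1 of a whole multiple of a step in 61.1% to 80.1% of cases, under the 95% needed to recover reads, so depth is an estimate and no count model was fitted.

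The 3 male limited bedding and 3 male control libraries were grouped by their labels. Genes with a value of at least 10 in at least 3 of the 6 libraries were tested as log2(value + 1), which understates the change of low genes, with limma 3.58.1 in R 4.3.3 (prior variance following mean level, Benjamini-Hochberg over 14820 genes, called at adjusted p under 0.05). A single-gene exact permutation test of 3 against 3 cannot go below 0.1. The steps were tested on simulated data. The 45 gene lists, the comparison and its named genes were chosen with earlier results of these data known. Lists are described by counts and medians, beside those of all tested genes.

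Named genes were the 12 largest rises and falls among called genes with a mean of at least 50, no predicted name and no overlap of groups; the 4 called members of lowest p in each list (or the member of lowest p); Nr3c1, Fkbp5, Tsc22d3, Sgk1 and Ddx3y; the 8 genes highest and 8 lowest in limited bedding replicate 2; and the 5 largest calls lost without it. The liver and meningeal lists and Sst were chosen after values were seen. The text omits some genes that the rule names. Coordinates are from GENCODE M21 (GRCm38), and sequences from RefSeq windows, which held 4 of 6 genes sought.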

Additional observations from a re-analysis of the deposited data

How the results depend on the processing

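With 6 libraries, 15 alternatives were run. The counts of 931 higher and 942 lower genes were 371 and 349 with 1 prior variance, and 387 to 799 and 365 to 852 with each library left out in turn. Counts past 1.5-fold were 183 to 254 and 152 to 311 with each library left out, against 279 and 277. Among these omissions all 4 counts were lowest without control replicate 2; the cause was not tested. Replicate numbers were shared by the groups. Deviations of same-numbered libraries correlated at 0.11, 0.03 and 0.06, and those of differently numbered libraries at -0.19 to 0.14. With so few libraries these values cannot tell whether the numbers pair the samples. With the replicate block 1226 genes were higher and 1210 lower. Other pseudocounts, filters and scalings and sample weights kept all 4 counts within 1.5 times, and every scaling moved the median of all genes by under 0.01. Of 165 called named genes 79 kept their call under every alternative, 77 lost it with 1 prior variance, 49 without control replicate 2 and 16 without limited bedding replicate 2. Log2 differences whose sign turned ranged, with each library left out, from -4.71 to 0.074 for Hist1h2ao (above 0 without limited bedding replicate 1 or 3) and from -0.43 to 0.38 for Klhdc7a (below 0 without control replicate 3 or limited bedding replicate 2, and -0.22 with sample weights). Without limited bedding replicate 2 the sign also turned, at the upper end of these ranges, for Alb (-3.29 to 0.74), Serpina6 (-3.09 to 0.78), Ahsg (-2.62 to 0.84), Serpina1b (-2.50 to 0.91) and Itih4 (-2.08 to 0.88). None of these was called with all libraries.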

Other observations

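Other transcripts also set limited bedding replicate 2 apart, in both directions, and are given as values only. H3c14, a replication-dependent histone gene, was at 76.1, 75.6 and 62.9 in the control libraries and 71.4, 0 and 63.4 in the limited bedding libraries; histone genes of this kind have near-identical copies, so single values are uncertain. The X-linked gene Xlr3b, also one of a family of near-identical copies, was at 147, 123 and 177 in the control libraries and 174, 5.92 and 103 in the limited bedding libraries, and Rsc1a1, a regulator of a glucose transporter, at 81.7, 76.7 and 109 in the control libraries and 63.3, 0 and 106 in the limited bedding libraries. The histone gene Hist1h2ao was at 169, 0 and 105 in the control libraries and 0, 758 and 0 in the limited bedding libraries, listed at 0 in 3 of the 6 libraries, which include both treatments. Atp13a5, a gene for a transport ATPase, was at 301, 238 and 85.1 in the control libraries and 229.6, 542 and 263 in the limited bedding libraries and Msln, which encodes mesothelin of surface linings, at 62.8, 60.3 and 32.0 in the control libraries and 72.2, 146 and 68.2 in the limited bedding libraries. For both, control replicate 3 was the lowest and limited bedding replicate 2 the highest library, the order seen for the meningeal genes. Myh4, a fast muscle myosin gene, was at 618, 8.03 and 29.8 in the control libraries and 8.85, 18.3 and 4.94 in the limited bedding libraries, with 1 control library far above the other libraries.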
